A study of Mus musculus with 12 samples.

Results

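The genes described here are targets of the transcription factor ATF4 and the cytosolic aminoacyl-tRNA synthetases, in mouse bone marrow-derived macrophages. They were chosen by symbol from a fixed set of 37 names, of which Mars and Mars1 are the older and newer symbol of the same gene and only Mars is in the deposited table. The set therefore held 36 genes of 54446 in the table, 18 ATF4 targets and 18 synthetases. The class called ATF4 targets here also holds Atf4 itself and its dimer partner Cebpg. Ddit3 had a second identifier with a count of 0 in every library, which was not used. After a filter on low counts 35 of the 36 genes were tested, and Pycr1, a proline synthesis enzyme, was not.

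The study measured RNA by sequencing in 12 libraries, 3 in each of 4 labelled groups. The cells were grown from femur and tibia marrow with recombinant macrophage colony-stimulating factor (M-CSF) in RPMI 1640 medium with fetal bovine serum. The groups were KO (LysM-Cre-positive, Nlrc3 fl/fl, which the series calls NLRC3ΔMac) with bacterial lipopolysaccharide (LPS), KO in medium, WT (LysM-Cre-negative, Nlrc3 fl/fl) with LPS, and WT in medium. All mice therefore carried the floxed Nlrc3 allele, and LysM-Cre deletes in myeloid cells. LPS was given for 12 hours, and neither its dose nor the age and number of the mice could be taken from the labels, so p-values measure the spread between these libraries, which may be technical in part.

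ATF4 is the main transcription factor of the integrated stress response. Kinases that sense amino acid shortage, unfolded protein, double-stranded RNA or haem shortage phosphorylate the initiation factor eIF2, which lowers general translation while ATF4 itself is translated more. ATF4 then binds DNA together with C/EBP partners and raises genes for amino acid synthesis, amino acid transport and the charging of tRNA. The tRNA synthetases join each amino acid to its tRNA, and several of them sit together in a multi-synthetase complex. The libraries measure RNA only, so neither ATF4 protein nor eIF2 phosphorylation was observed.

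The libraries labelled KO went against their treatment labels. Nos2, the inducible nitric oxide synthase and a standard LPS-induced gene, measured in CPM (counts scaled to a common library total), was at 5.43, 1.42 and 0.689 in libraries labelled KO LPS and 2717, 1148 and 2347 CPM in those labelled KO medium, against 2153, 831 and 2704 CPM in WT LPS and 5.94, 3.90 and 8.35 CPM in WT medium. Nlrc3 itself had 15.6, 8.29 and 6.04 CPM in libraries labelled KO LPS, 0.996, 0.850 and 0.876 CPM in those labelled KO medium, 0.796, 4.39 and 1.40 CPM in WT LPS and 9.89, 13.6 and 10.4 CPM in WT medium. Nlrc3 therefore exceeded its WT LPS level where KO LPS was the label, by a log2 fold change of 1.76 ± 0.52 (edgeR adjusted p = 0.0298). In labelled KO medium against WT medium it was lower, at −2.83 ± 0.56 (adjusted p = 0.00371). It passed the test neither in labelled KO LPS against WT medium (−0.12 ± 0.50, adjusted p = 0.981) nor in labelled KO medium against WT LPS (−0.94 ± 0.55, adjusted p = 0.950). Loss of Nlrc3 under the KO label was therefore not seen in each comparison. The labels do not say which exons are floxed. Every direction below that involves libraries labelled KO is a direction between labels, and the comparison of WT LPS with WT medium was also fitted without them.

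Totals were 13082947 to 20960505 counts a library, and 3 counts, taken as the floor of detection, came to 0.143 to 0.229 CPM. Macrophage markers were present in every library, with 8 of 8 genes detected and a summed level of 21231 to 34432 CPM in libraries labelled KO LPS, 10063 to 12947 CPM in those labelled KO medium, 12620 to 19337 CPM in WT LPS and 32183 to 35761 CPM in WT medium. In the same order, 10 neutrophil markers summed to 1216 to 7200, 1911 to 3779, 1635 to 6102 and 881 to 1308 CPM, and 6 B lineage markers to 86.8 to 742, 38.5 to 84.5, 50.7 to 82.2 and 50.6 to 66.0 CPM. The 8 stromal markers summed to 42.4 to 106, 52.3 to 174, 48.1 to 357 and 66.6 to 156 CPM, 5 T and NK cell markers to 2.27 to 14.0, 0.496 to 2.70, 1.46 to 4.53 and 1.68 to 8.92 CPM, and 4 platelet markers to 503 to 775, 155 to 519, 140 to 484 and 147 to 451 CPM. The 6 proliferation genes summed to 160 to 212, 55.3 to 128, 76.8 to 130 and 163 to 207 CPM. No marker of these lists was at 0 in all libraries, and the part of these cells in the results was not tested. In 3 groups 1 library stood apart from the others and also differed from them in the presence of Xist RNA: labelled KO LPS 1, WT LPS 2 and WT medium 2. Labelled KO medium 3 also lay apart from its group, without a difference in Xist RNA. Its chi-square per degree of freedom was 123 against labelled KO medium 1 and 194 against 2, and theirs was 54.5. Xist was at 191 and 95.1 CPM in labelled KO LPS 2 and 3, 437 in WT LPS 2 and 587 and 634 in WT medium 1 and 3. In the other libraries, including all 3 labelled KO medium, it was at 0 to 0.306 CPM. Presence of Xist RNA was therefore not balanced between the groups and is in part tied to the labels. In these bulk samples fewer cells of a type and less RNA per cell cannot be told apart.

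The DNA element most closely tied to ATF4 is the C/EBP-ATF response element, whose core is TGATGNAA (TTNCATCA on the other strand). RefSeq promoters of build GRCm38.p6, from 250 bases before to 50 bases after the start, were on hand for 28 of the 36 genes. The element was found on either strand in 11 of these 28 genes (39.3%), against 4.51% of 27025 genes with a promoter in the table. They were Aars, Asns, Chac1, Gars, Iars, Nupr1, Pck2, Pycr1, Tars, Trib3 and Yars. Since ATF4 targets were picked for this set, its higher share is not separate evidence that ATF4 acts on these genes. The 44-base windows below are shown because they set genes that were called in at least 1 comparison (the first 4) next to genes that were called in none (the last 2), and both carry the element, which is in capitals.
Nupr1, chr7:126625567-126625610, minus strand: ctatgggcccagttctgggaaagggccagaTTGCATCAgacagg
Iars, chr13:49682107-49682150, plus strand: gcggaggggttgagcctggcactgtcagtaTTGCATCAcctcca
Pck2, chr14:55540133-55540176, plus strand: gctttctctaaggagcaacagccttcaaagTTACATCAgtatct
Yars, chr4:129189876-129189919, plus strand: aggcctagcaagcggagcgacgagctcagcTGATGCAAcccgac
Asns, chr6:7693219-7693262, minus strand: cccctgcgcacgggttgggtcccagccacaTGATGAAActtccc
Trib3, chr2:152344033-152344076, minus strand: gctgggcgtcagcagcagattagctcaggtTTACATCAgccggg
The element began 110 bases before the start in Nupr1, 103 before in Pck2 and 23 before in Asns, and it lay 8 bases after it in Iars, 4 after in Yars and 15 after in Trib3. Asns, Trib3, Aars, Chac1, Gars and Tars passed the test in no comparison of groups that differ in 1 label. Nupr1 rose with LPS in WT and Iars fell, so the element occurred in genes of both directions. A match of letters is not evidence of binding.

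Elements of the interferon and cytokine pathways were searched in the same windows. The STAT element TTCNNNGAA, which reads the same on both strands, was in 5 of the 28 genes (17.9%), against 9.55% of all genes, and they were Aars, Aldh18a1, Kars, Nupr1 and Shmt2. In Nupr1 it lies 128 bases before the start, shown in capitals here because it sits just upstream of the C/EBP-ATF element above.
Nupr1, chr7:126625584-126625628, minus strand: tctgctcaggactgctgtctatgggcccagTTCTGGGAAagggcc
The interferon-stimulated response core GAAANNGAA (TTCNNTTTC on the other strand) was in 1 of the 28, Qars, against 9.76% of all genes. Wars, an interferon-induced gene, has no entry in the promoter table.

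Per length, the genes spanned a wide range of abundance. In the deposited FPKM (fragments per kilobase of gene, scaled for depth), averaged over all 12 libraries, Slc3a2 stood at 141, Atf4 at 89.3 and Nupr1 at 87.1, ahead of Nars (50.3) and Rars (47.9). For Nupr1 this mean joins very different groups, with 9.73 FPKM on average in libraries labelled KO LPS, 167 in those labelled KO medium, 158 in WT LPS and 14.2 in WT medium, so that it lay below Nars (71.4 and 72.2) in libraries labelled KO LPS and in WT medium. Wars followed at 27.3 FPKM, close to Hars (26.3) and Gars (25.3). The lowest were Trib3 (1.47), Psph (1.16), Chac1 (0.422) and Pycr1 (0.0948). Levels below are in normalised CPM, that is CPM scaled by trimmed-mean (TMM) factors, which compare a gene between libraries but not genes with each other.

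With LPS in WT macrophages, genes of this set were called in both directions. In WT LPS against WT medium, 5 of the 35 tested genes rose (Nupr1, Psat1, Mthfd2, Slc3a2 and Wars) and 4 fell (Atf5, Shmt2, Iars and Vars), at an edgeR adjusted p under 0.05. Over all 13773 tested genes 18.3% were called, 11.9% higher and 6.46% lower, and of the 17 ATF4 targets 4 rose and 2 fell, while of the 18 synthetases 1 rose and 2 fell. The median log2 fold change was 0.57 over the ATF4 targets and −0.41 over the synthetases, against −0.06 over all genes. The first of these medians was the value of Atf4 itself, which was not called. The WT LPS and WT medium libraries did not overlap for 22 of the 35 genes, against 33.9% of all genes. Leaving out 1 library moved the count of 9 beyond 1.5 times in 3 cases, to 5 without WT medium 1, 14 without WT medium 2 and 5 without WT medium 3. Without WT LPS 2 it was 13. Over all genes 2526 were called in the main fit, and 3042 without WT LPS 2. Without WT medium 1, 2 or 3 the calls over all genes were 1493, 2818 or 1545. Fitted on the 6 WT libraries alone, 8 members were called, with 1123 of all genes higher and 467 lower.

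Of the 9 members called in WT, 8 were called with the opposite sign between libraries labelled KO LPS and KO medium, and the other, Slc3a2, was at −0.80 ± 0.32 (adjusted p = 0.0771) by edgeR. In that comparison 11 members were higher and 6 lower, against 30.4% of all genes called (15.1% higher and 15.3% lower), and 23 of 35 did not overlap, against 45.8% of all genes. The libraries labelled KO LPS against WT LPS had 9 members higher and 4 lower, with 24.1% of all genes called (10.4% higher and 13.7% lower), and 19 of 35 did not overlap, against 38% of all genes. For those labelled KO medium against WT medium the counts were 7 higher and 9 lower, with 26.3% of all genes called (14% higher and 12.3% lower), and 24 of 35 did not overlap, against 42.6% of all genes. With library size alone as the scaling, in place of TMM, the members' counts were 22 higher and 4 lower for labelled KO LPS against KO medium, 15 and 3 for labelled KO LPS against WT LPS, and 3 and 18 for labelled KO medium against WT medium. Over all genes that scaling gave 5317 higher and 1177 lower, 3487 and 1194, and 1070 and 5574 in the same order. Each of the 4 comparisons shares libraries with others of them, so their counts are not independent. Without labelled KO LPS 2 or WT LPS 3 the count of 13 for labelled KO LPS against WT LPS was 8 or 7. Over all genes 3324 were called there, and 1810 or 1822 without these libraries. Without labelled KO medium 1, WT medium 1 or WT medium 3 the count of 16 for labelled KO medium against WT medium was 10, 8 or 9. Over all genes 3620 were called there, and 2269, 2196 or 2235 without these libraries. Without the libraries that stood apart and differed in Xist RNA, the counts were 18 (labelled KO LPS against KO medium) and 15 (labelled KO LPS against WT LPS) without labelled KO LPS 1, 16 (labelled KO LPS against WT LPS) without WT LPS 2, and 17 (labelled KO medium against WT medium) without WT medium 2. Over all genes these fits called 5095, 4093, 3489 and 4735 in the same order. The main fit called 4186 for labelled KO LPS against KO medium. Without labelled KO medium 3, 10 members were higher and 5 lower in that comparison, with 3236 of all genes called. Labelled KO medium against WT medium then had 7 higher and 6 lower, with 2848 of all genes called. Atf5, Iars, Mthfd2, Nupr1, Psat1, Shmt2 and Wars were called in all 4 comparisons of groups that differ in 1 label, and 15 tested genes were called in none.

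**Figure D1:**
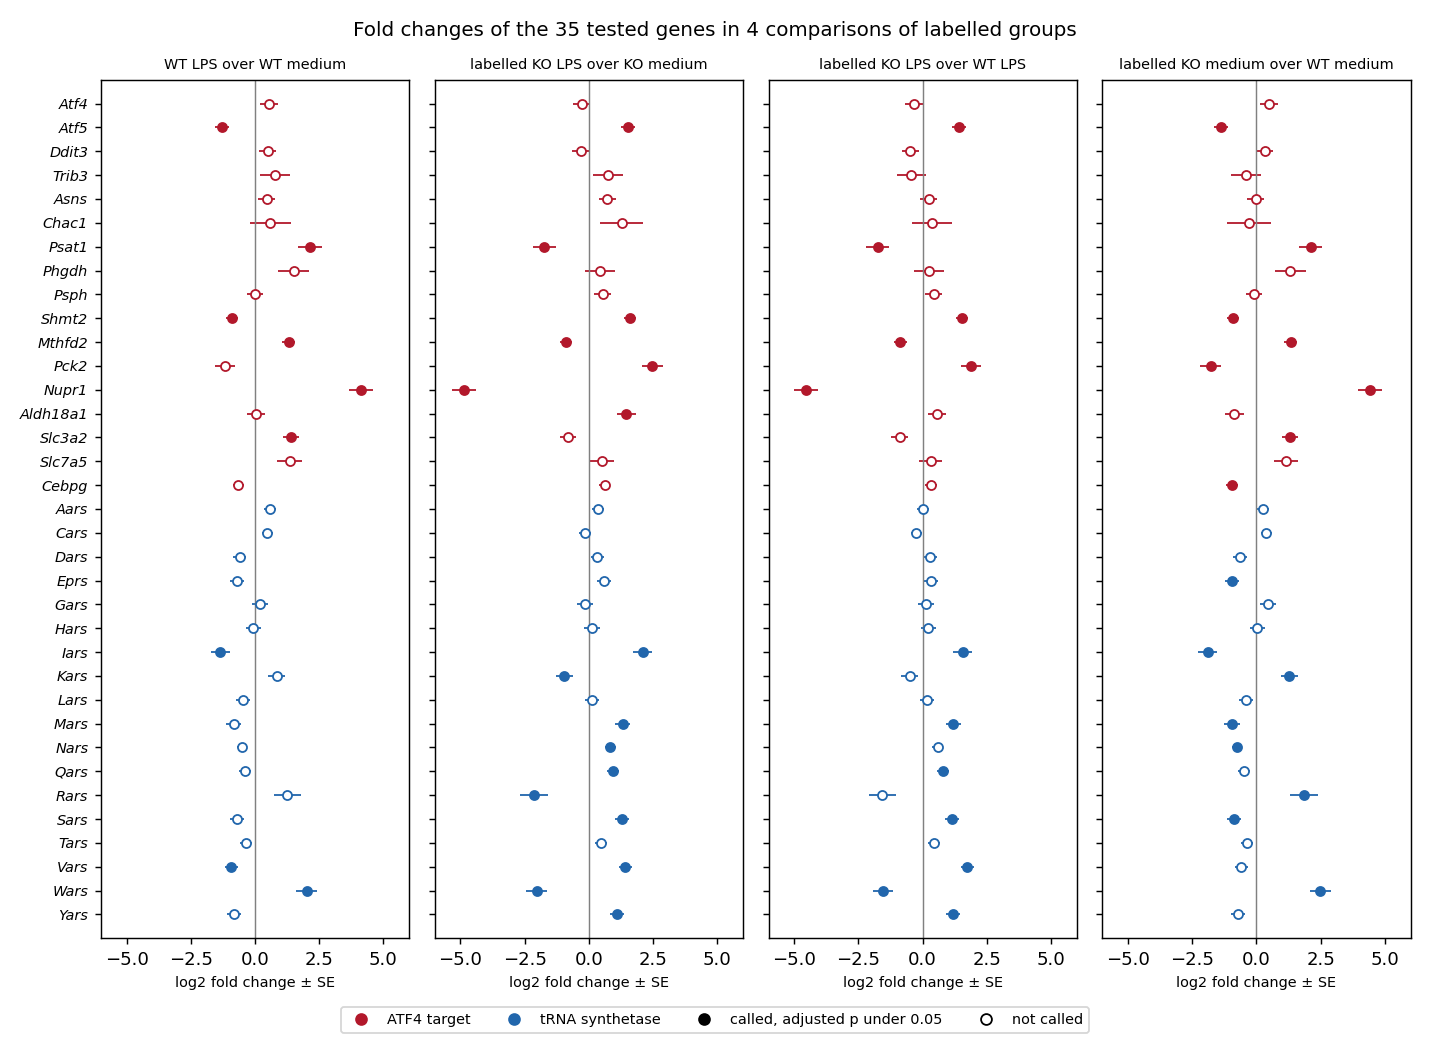
Log2 fold changes with their standard errors (x axes) of the 35 tested genes (rows) in the 4 comparisons of groups that differ in 1 label. Filled points passed an edgeR adjusted p under 0.05. ATF4 targets are red and synthetases blue. Nupr1 and Wars stand to the right of 0 in WT LPS over WT medium and in labelled KO medium over WT medium, and to the left of 0 in the other panels.

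Among the regulators, Nupr1, a small stress-induced chromatin protein, had the largest fold changes of all members in these 4 comparisons. Its level was 28.8, 12.8 and 18.5 normalised CPM in libraries labelled KO LPS, 775, 529 and 432 in those labelled KO medium, 422, 265 and 729.7 in WT LPS and 26.5, 22.3 and 32.1 in WT medium. The high and the low groups did not overlap, and the lowest WT LPS library was still far above each WT medium library. In WT LPS against WT medium Nupr1 rose 17.5-fold (95% interval 8.76 to 35.04), a log2 fold change of 4.13 ± 0.46 (adjusted p = 1.71e-04) by edgeR. Between the libraries labelled KO LPS and KO medium it was lower, at −4.85 ± 0.47 (adjusted p = 5.79e-05), and against WT LPS at −4.56 ± 0.47 (adjusted p = 9.32e-05). Under the KO medium label it was 21.5-fold higher than in WT medium, at 4.42 ± 0.47 (adjusted p = 1.02e-04). All 4 calls held with any library of the comparison left out.

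Atf4 RNA did not pass the test in any comparison. Its level was 262, 172 and 157 normalised CPM in libraries labelled KO LPS, 201, 285 and 233 in those labelled KO medium, 265, 215 and 275 in WT LPS and 105, 266 and 138 in WT medium, and the groups overlapped, with WT medium 2 as high as the WT LPS libraries. The log2 fold change was 0.57 ± 0.35 (adjusted p = 0.296) in WT LPS against WT medium and −0.28 ± 0.35 (adjusted p = 0.564) in libraries labelled KO LPS against KO medium, by edgeR. It was −0.35 ± 0.35 (adjusted p = 0.497) in libraries labelled KO LPS against WT LPS, and 0.50 ± 0.35 (adjusted p = 0.321) in libraries labelled KO medium against WT medium. Ddit3, which encodes the pro-apoptotic factor CHOP, and Trib3, a pseudokinase that feeds back on ATF4, were called in none of the 4 comparisons either. Ddit3 lay between 23.4 and 58.4 normalised CPM over the 12 libraries and Trib3 between 1.36 and 5.82. Ddit3 shares 68 exon bases with Mars on the other strand, and it is not known whether the counting used strand, so reads there cannot be assigned with certainty.

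Atf5, a stress-regulated bZIP factor related to ATF4, moved against Nupr1. Its level was 24.1, 36.8 and 31.7 normalised CPM in libraries labelled KO LPS, 11.5, 8.98 and 11.8 in those labelled KO medium, 10.9, 11.9 and 11.6 in WT LPS and 33.1, 19.4 and 31.6 in WT medium. Each of the 3 libraries labelled KO LPS and of the 3 WT medium libraries exceeded each library of the other 2 groups. Atf5 fell in WT LPS against WT medium, at −1.29 ± 0.27 (adjusted p = 0.00666) by edgeR. It was higher in libraries labelled KO LPS than KO medium (1.52 ± 0.27) and WT LPS (1.43 ± 0.27), and lower in libraries labelled KO medium than WT medium (−1.39 ± 0.27). These calls held with any library left out. Atf5 shares 82 exon bases with Nup62 and Il4i1 on the other strand. Cebpg, a dimer partner of ATF4, was called in 1 of the 4 comparisons, lower in libraries labelled KO medium than in WT medium, at −0.95 ± 0.22 (adjusted p = 0.00893).

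**Figure D2:**
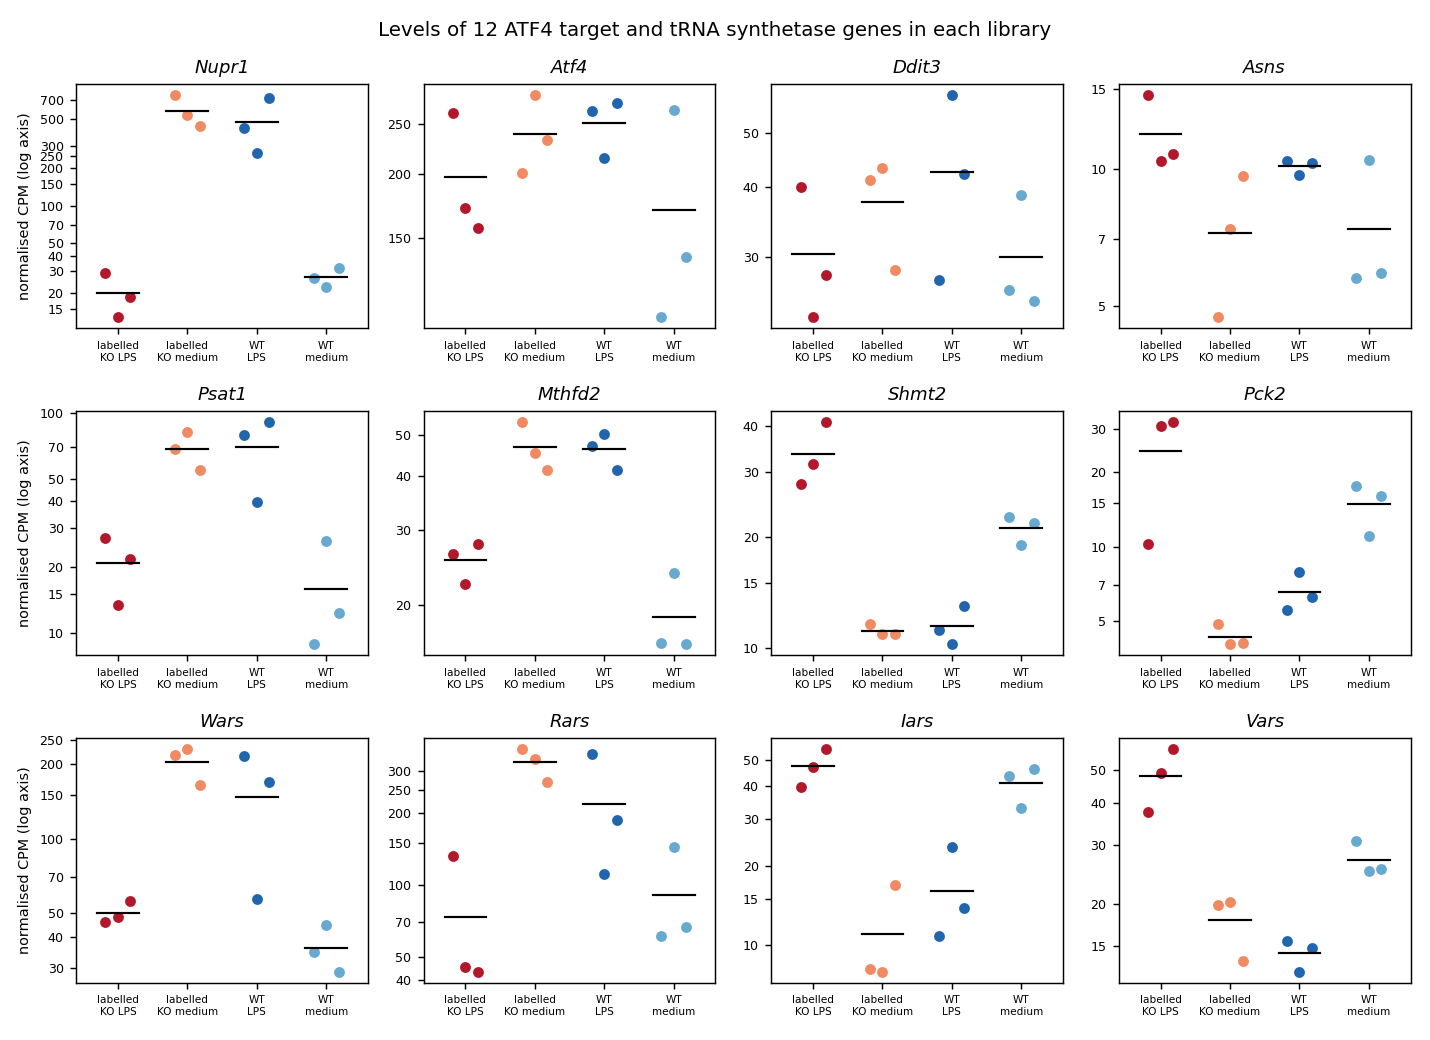
Level of 12 of the genes in each library (points, normalised CPM on a log axis that differs between panels), with the group mean as a line. Nupr1, Psat1, Mthfd2 and Wars are high under the KO medium label and in WT LPS. Shmt2, Pck2, Iars and Vars are high in WT medium and under the KO LPS label. The groups overlap for Atf4 and Ddit3.

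The enzymes that make serine and use it in mitochondrial folate metabolism split. Psat1, the aminotransferase of serine synthesis, and Mthfd2, a mitochondrial folate dehydrogenase, rose with LPS in WT, while Shmt2, the mitochondrial serine hydroxymethyltransferase, fell. Psat1 had 26.95, 13.5 and 21.7 normalised CPM in libraries labelled KO LPS, 68.3, 82.1 and 55.1 in those labelled KO medium, 79.4, 39.2 and 90.9 in WT LPS and 8.898, 26.2 and 12.4 in WT medium. Mthfd2 had 26.3, 22.3 and 27.8 normalised CPM in libraries labelled KO LPS, 53.7, 45.3 and 41.4 in those labelled KO medium, 47.1, 50.2 and 41.5 in WT LPS and 16.3, 23.7 and 16.1 in WT medium. In both genes the high and the low groups were apart, and WT medium 2 was the highest of the WT medium libraries. By edgeR, Psat1 rose by 2.14 ± 0.45 (adjusted p = 0.00665) on the log2 scale in WT LPS against WT medium and Mthfd2 by 1.31 ± 0.24 (adjusted p = 0.002995). Libraries labelled KO medium had more of both than WT medium, with 2.12 ± 0.45 (adjusted p = 0.00537) for Psat1 and 1.33 ± 0.24 (adjusted p = 0.00221) for Mthfd2.

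In libraries labelled KO LPS Psat1 was lower than in those labelled KO medium (−1.73 ± 0.44) and in WT LPS (−1.75 ± 0.44), and so was Mthfd2 (−0.88 ± 0.24 and −0.86 ± 0.23). Each of these calls was lost in at least 1 of the fits that left out 1 library. Between labelled KO LPS and KO medium, Psat1 lost its call without labelled KO LPS 2 (0.0599) and Mthfd2 without labelled KO LPS 2 (0.0785) and without labelled KO medium 1 (0.0724), where the values in parentheses are edgeR adjusted p-values. Against WT LPS, Psat1 lost it without labelled KO LPS 2 (0.0693) and without WT LPS 3 (0.0656) and Mthfd2 without labelled KO LPS 2 (0.0994) or 3 (0.0511).

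Shmt2 showed the opposite order. It had 27.8, 31.7 and 41.1 normalised CPM in libraries labelled KO LPS, 11.6, 10.9 and 10.9 in those labelled KO medium, 11.2, 10.2 and 13.01 in WT LPS and 22.7, 19.1 and 21.9 in WT medium. The libraries labelled KO LPS were all above those of WT medium, and both were above the remaining 6. Shmt2 fell in WT LPS against WT medium, at −0.89 ± 0.23 (adjusted p = 0.01898) by edgeR. It was higher in libraries labelled KO LPS than KO medium, at 1.59 ± 0.23 (adjusted p = 6.48e-04), and than WT LPS, at 1.55 ± 0.23 (adjusted p = 9.28e-04), and lower in libraries labelled KO medium than WT medium, at −0.93 ± 0.23 (adjusted p = 0.0121). The WT call was lost without WT medium 1 (0.0764) or 3 (0.0648), and the last one without WT medium 1 (0.0513). Phgdh and Psph, the first and last enzymes of serine synthesis, were called in none of these comparisons, with ranges of 1.94 to 11.6 and 2.898 to 6.51 normalised CPM over all libraries. Psph shares 452 exon bases, 10.4% of its own, with Cct6a on the other strand.

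Of the other metabolic targets, Pck2, the mitochondrial enzyme that makes phosphoenolpyruvate, was called in 3 of the 4 comparisons. It had 10.2, 30.6 and 31.9 normalised CPM in libraries labelled KO LPS, 4.88, 4.04 and 4.09 in those labelled KO medium, 5.56, 7.896 and 6.25 in WT LPS and 17.6, 11.1 and 16.002 in WT medium. Labelled KO LPS 1 was far below the other libraries labelled KO LPS, though still above each library labelled KO medium and each WT LPS library. By edgeR Pck2 was higher in libraries labelled KO LPS than KO medium, at 2.48 ± 0.41 (adjusted p = 0.001196), and than WT LPS, at 1.88 ± 0.40 (adjusted p = 0.00586), and lower in libraries labelled KO medium than WT medium, at −1.78 ± 0.40 (adjusted p = 0.00725). In WT LPS against WT medium its value was −1.18 ± 0.39 (adjusted p = 0.0549), which missed the threshold although the groups did not overlap. Aldh18a1, which starts proline synthesis, was called in 1 comparison, higher in libraries labelled KO LPS than KO medium, at 1.47 ± 0.36 (adjusted p = 0.0108). Asns, asparagine synthetase and a classical ATF4 target, ranged from 4.72 to 14.6 normalised CPM and was called in none. Chac1, which degrades glutathione, lay at 0.125 to 1.595 normalised CPM, near the floor, and was called in none. Pycr1 was at 0 to 0.862 normalised CPM and was not tested.

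The pair of transporter subunits differed in abundance. Slc3a2, the heavy chain of several amino acid exchangers (CD98), had 559, 303 and 334 normalised CPM in libraries labelled KO LPS, 717, 666 and 699.9 in those labelled KO medium, 779, 701 and 751 in WT LPS and 217, 408 and 219 in WT medium. The libraries labelled KO medium and the WT LPS libraries lay close together at the top. Slc3a2 rose in WT LPS against WT medium, at 1.40 ± 0.32 (adjusted p = 0.0108) by edgeR, and was higher in libraries labelled KO medium than in WT medium, at 1.30 ± 0.32 (adjusted p = 0.0119). The WT call was lost without WT medium 1 (0.0568) or 3 (0.0541), and the other without labelled KO medium 1 (0.0514) and without WT medium 1 (0.0607) or 3 (0.0587). Slc7a5, a light chain that pairs with it to carry large neutral amino acids, was called in none of these comparisons, with 2.92 to 22.4 normalised CPM.

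The cytosolic synthetases did not move as a block. Wars, which charges tryptophan and is known as an interferon-induced gene, was the only synthetase called higher by edgeR in WT LPS against WT medium. Aars and Cars were also higher there without overlap of the groups, but were not called. Their log2 fold changes were 0.586 (edgeR adjusted p = 0.110) and 0.489 (0.146). With presence of Xist RNA as a covariate, chosen after seeing the data, 4 synthetases were called higher and 4 lower. Wars had 45.9, 48.4 and 56.04 normalised CPM in libraries labelled KO LPS, 218, 229.6 and 165 in those labelled KO medium, 215, 57.2 and 169 in WT LPS and 34.99, 44.8 and 29.1 in WT medium. WT LPS 2 was far below the other 2 WT LPS libraries but above each WT medium library, and the libraries labelled KO medium lay together near the other 2. In the same library Nos2 and Il6 were lower than in the other WT LPS libraries (Il6 at 245, 12.3 and 214 CPM). In WT Wars rose 4.05-fold (95% interval 2.19 to 7.47), a log2 fold change of 2.02 ± 0.41 (adjusted p = 0.005401) by edgeR, and of 2.403 without WT LPS 2. It was 5.63-fold higher in libraries labelled KO medium than in WT medium, at 2.49 ± 0.41 (adjusted p = 0.00139). It was lower in libraries labelled KO LPS than KO medium, at −2.03 ± 0.41 (adjusted p = 0.00346), and than WT LPS, at −1.55 ± 0.40 (adjusted p = 0.01598). The last call was lost without labelled KO LPS 2 (0.0639) and without WT LPS 1 (0.0588) or 3 (0.0551), and when only these 2 groups were fitted (0.0528).

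Rars, the arginine enzyme, and Kars, the lysine enzyme, both of the multi-synthetase complex, were, like Wars, higher on average in libraries labelled KO medium and in WT LPS than in the other groups. Rars had 132, 45.1 and 43.3 normalised CPM in libraries labelled KO LPS, 372, 337 and 271 in those labelled KO medium, 354, 111 and 188 in WT LPS and 60.9, 145 and 66.6 in WT medium. Kars had 98.6, 66.5 and 77.2 normalised CPM in libraries labelled KO LPS, 152, 172 and 143 in those labelled KO medium, 155, 69.8 and 119.9 in WT LPS and 51.6, 89.5 and 50.3 in WT medium. Labelled KO LPS 1, WT LPS 2 and WT medium 2 departed from their groups in both genes, each towards the level of the opposite groups. By edgeR neither was called in WT LPS against WT medium, with Rars at 1.26 ± 0.53 (adjusted p = 0.124) and Kars at 0.85 ± 0.33 (adjusted p = 0.0965). Both were lower in libraries labelled KO LPS than KO medium, at −2.15 ± 0.55 (adjusted p = 0.0122) and −0.95 ± 0.33 (adjusted p = 0.0476). Both were higher in libraries labelled KO medium than WT medium, at 1.85 ± 0.54 (adjusted p = 0.0262) and 1.29 ± 0.33 (adjusted p = 0.0148).

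The calls for Rars and Kars were each lost in 2 to 5 of the 6 fits that left out 1 library of the comparison. Between labelled KO LPS and KO medium, Rars lost its call without labelled KO LPS 2 (0.0564) or 3 (0.0546) and Kars without labelled KO LPS 2 (0.167) or 3 (0.132) and without labelled KO medium 1 (0.0988), 2 (0.133) or 3 (0.0703), with edgeR adjusted p-values in parentheses. Between labelled KO medium and WT medium, Rars lost it without labelled KO medium 1 (0.0851) or 2 (0.0736) and without WT medium 1 (0.101) or 3 (0.0988) and Kars without labelled KO medium 2 (0.0596) and without WT medium 1 (0.0691) or 3 (0.0692). An annotated pseudogene, Kars-ps1, may share reads with Kars.

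Iars, the isoleucine enzyme, and Vars, the valine enzyme, moved the other way. Iars had 39.8, 47.3 and 55.01 normalised CPM in libraries labelled KO LPS, 8.18, 7.97 and 16.9 in those labelled KO medium, 10.9, 23.5 and 13.8 in WT LPS and 43.7, 32.96 and 46.3 in WT medium. Vars had 37.7, 48.9 and 57.8 normalised CPM in libraries labelled KO LPS, 19.97, 20.4 and 13.6 in those labelled KO medium, 15.5, 12.6 and 14.9 in WT LPS and 30.7, 25.2 and 25.4 in WT medium. For both, the libraries labelled KO LPS and WT medium stood above all those labelled KO medium and WT LPS. By edgeR Iars fell in WT LPS against WT medium, at −1.35 ± 0.36 (adjusted p = 0.0233), and Vars at −0.92 ± 0.25 (adjusted p = 0.0254). Iars lost that call without WT LPS 1 (0.0777) or 3 (0.0979) and without WT medium 1 (0.0705) or 3 (0.0756), and Vars without WT LPS 2 (0.0593) or 3 (0.0617) and without WT medium 1 (0.102) or 3 (0.05902). In libraries labelled KO LPS Iars was higher than in those labelled KO medium (2.10 ± 0.37) and in WT LPS (1.56 ± 0.37), and Vars likewise (1.42 ± 0.26 and 1.75 ± 0.26). Without WT LPS 3 (0.0573) Iars lost its call against WT LPS. Iars was also lower in libraries labelled KO medium than in WT medium, at −1.90 ± 0.37 (adjusted p = 0.00355), where Vars at −0.59 ± 0.25 (adjusted p = 0.102) was not called.

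The enzymes for methionine (Mars), serine (Sars), tyrosine (Yars), glutamine (Qars) and asparagine (Nars) had, like Iars, higher means in libraries labelled KO LPS and in WT medium than in the other groups. Mars had 26.4, 33.7 and 37.7 normalised CPM in libraries labelled KO LPS, 13.1, 15.7 and 10.3 in those labelled KO medium, 12.5, 20.3 and 9.74 in WT LPS and 27.1, 22.97 and 25.6 in WT medium. Sars had 94.4, 105 and 98.2 normalised CPM in libraries labelled KO LPS, 46.9, 45.6 and 28.7 in those labelled KO medium, 50.4, 53.5 and 32.1 in WT LPS and 68.4, 85.3 and 66.97 in WT medium. In WT LPS against WT medium all 5 were lower and the groups did not overlap, but edgeR called none of them. The log2 fold changes were −0.83 for Mars (adjusted p = 0.0760), −0.70 for Sars (0.0935) and −0.82 for Yars (0.0559). Qars was at −0.37 (0.300) and Nars at −0.51 (0.116). DESeq2 called 6 of the 18 synthetases lower there, beside 1424 of 27062 genes. All 5 were higher in libraries labelled KO LPS than KO medium by edgeR, with log2 fold changes of 1.32 for Mars, 1.30 for Sars, 1.10 for Yars, 0.93 for Qars and 0.85 for Nars. Yars had 31.6, 22.9 and 27.03 normalised CPM in libraries labelled KO LPS, 11.2, 16.05 and 10.8 in those labelled KO medium, 9.55, 13.6 and 12.4 in WT LPS and 17.9, 26.4 and 18.7 in WT medium. Qars had 80.9, 118 and 125 normalised CPM in libraries labelled KO LPS, 64.2, 49.1 and 56.6 in those labelled KO medium, 64.8, 65.3 and 55.1 in WT LPS and 85.8, 72.2 and 81.6 in WT medium. Against WT LPS, the libraries labelled KO LPS were higher in Mars (1.197), Sars (1.13), Yars (1.19) and Qars (0.81), and Nars at 0.59 ± 0.21 (adjusted p = 0.0577) was not called. Nars had 142, 153 and 165 normalised CPM in libraries labelled KO LPS, 78.7, 87.7 and 89.4 in those labelled KO medium, 96.4, 118 and 90.7 in WT LPS and 146, 129 and 158 in WT medium. Libraries labelled KO medium were lower than WT medium in Mars (−0.95), Sars (−0.86) and Nars (−0.76), and also in Eprs, which charges glutamate and proline (−0.95).

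Several of these calls ended when 1 library was left out, and the values in parentheses are then the edgeR adjusted p-values. Between labelled KO LPS and KO medium this held for Nars without labelled KO medium 1 (0.0572), Qars without labelled KO LPS 2 (0.0514) or 3 (0.0511) and Yars without labelled KO medium 1 (0.0634) or 3 (0.05299). Between labelled KO LPS and WT LPS it held for Mars without labelled KO LPS 2 (0.05002) or 3 (0.0564) and without WT LPS 1 (0.0659) or 3 (0.08297), Sars without WT LPS 3 (0.0636) and Qars without labelled KO LPS 2 (0.103) or 3 (0.105) and without WT LPS 1 (0.0635) or 3 (0.104). Between labelled KO medium and WT medium it held for Mars without labelled KO medium 1 (0.0982) or 3 (0.106) and without WT medium 1 (0.107) or 3 (0.0919), Sars without labelled KO medium 1 (0.05899) or 3 (0.0946) and without WT medium 1 (0.0729), 2 (0.0589) or 3 (0.0671), Nars without labelled KO medium 1 (0.0717) and without WT medium 1 (0.0678) or 3 (0.0802) and Eprs without labelled KO medium 1 (0.0941), 2 (0.0512) or 3 (0.0699) and without WT medium 1 (0.0757) or 3 (0.0788). The remaining 7 synthetases, Aars, Cars, Dars, Gars, Hars, Lars and Tars, had no call in any of the 4 comparisons, with levels from 24.98 (Lars) to 144 (Aars) normalised CPM. Hars shares 195 exon bases with Hars2 on the other strand, and Aars 1326 with Exosc6 on the same strand.

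As a share of all counts of the 18 synthetases, the make-up of the set differed between groups without any scaling of libraries. Wars took 3.58% to 4.76% of these counts in libraries labelled KO LPS, 13.8% to 16.3% in those labelled KO medium, 5.72% to 15.4% in WT LPS and 2.99% to 3.82% in WT medium. Rars took 6.01% on average in libraries labelled KO LPS, 24.4% in those labelled KO medium, 17.7% in WT LPS and 8.47% in WT medium. Nars, which charges asparagine, averaged 12.9%, 6.45%, 8.95% and 14.1% in the same order, and Iars 3.999%, 0.855%, 1.46% and 4.02%. The low end of the Wars share in WT LPS was again WT LPS 2. For Rars and Nars the libraries of the groups overlapped. WT LPS 2 had Nars at 11.8%, above WT medium 2 (10.99%) and labelled KO LPS 1 (11.07%), and Rars at 11.1%, below WT medium 2 (12.3%). Shares of a whole are tied to each other, so a larger share of Wars and Rars lowers those of the rest.

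**Figure D3:**
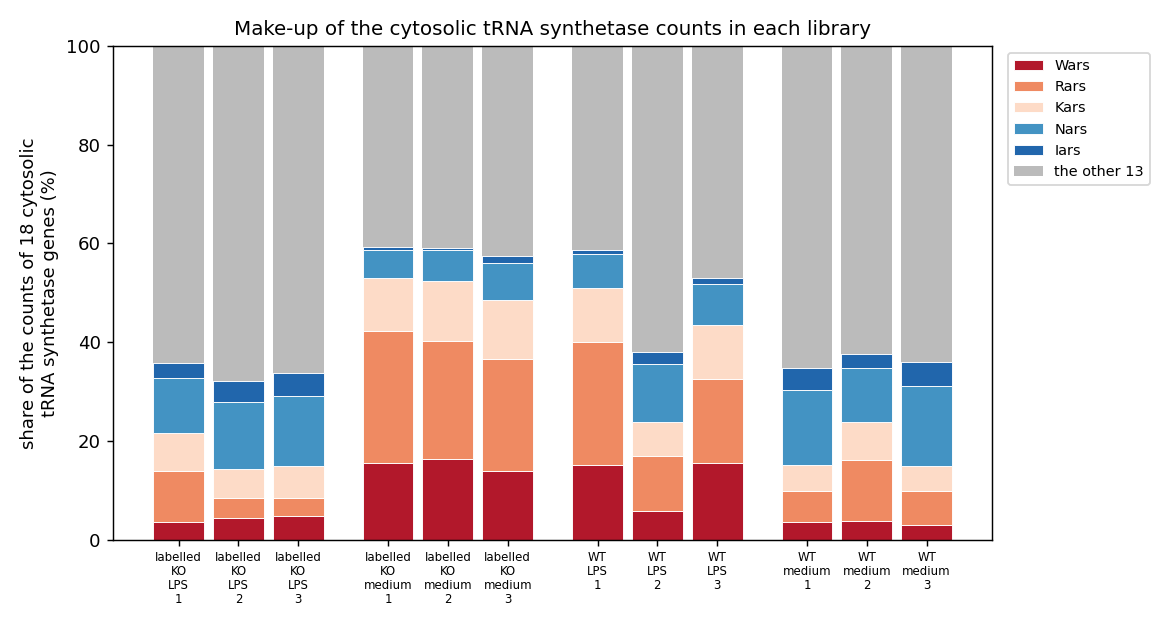
Share of the summed counts of the 18 cytosolic synthetase genes (y axis, %) taken by Wars, Rars, Kars, Nars, Iars and the other 13 in each library (bars). Wars takes 13.8% to 16.3% in libraries labelled KO medium and 3.58% to 4.76% in those labelled KO LPS. WT LPS 2, with 5.72%, differs from WT LPS 1 and 3.

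Groups that differ in both labels were set side by side because their levels lay close. Libraries labelled KO medium against WT LPS had 0 members called by edgeR and 0 by DESeq2, with 1 member and 270 genes in all (1.96%) at an unadjusted p under 0.05, and 7 of 35 members did not overlap, against 5.46% of all genes. The background was 0% of 13773 genes called by edgeR, and 1 gene was called by DESeq2. Libraries labelled KO LPS against WT medium likewise had 0 members called by either tool, with 5 members and 1135 genes in all (8.24%) at an unadjusted p under 0.05, and 8 of 35 did not overlap, against 10.6% of all genes. DESeq2 called 35 genes higher and 2 lower there. Without labelled KO LPS 1 edgeR called 245 genes in this comparison and still 0 members, and without labelled KO medium 1 it called 2 genes in the one before and 0 members.

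Nupr1 was 1.22-fold (95% interval 0.666 to 2.25) in libraries labelled KO medium against WT LPS and 0.744-fold (0.402 to 1.38) in those labelled KO LPS against WT medium. Wars was 1.39-fold (0.7698 to 2.51) and 1.38-fold (0.764 to 2.499). Atf4 had log2 fold changes of −0.07 ± 0.35 and 0.21 ± 0.35. These intervals do not show that the groups were alike, since a change of nearly 2-fold lies within several of them. The smallest unadjusted p among members was that of Slc7a5 in libraries labelled KO LPS against WT medium, with a log2 fold change of 1.67 ± 0.47 (adjusted p = 0.552) by edgeR.

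The difference between the labelled LPS effects was tested as an interaction, the log2 fold change of labelled KO LPS over KO medium minus that of WT LPS over WT medium. By edgeR, 13 members had a positive and 7 a negative interaction, against 41.1% of all genes called (20.5% and 20.6%). With library size alone as the scaling 21 members were positive and 5 negative, and 6597 and 1538 of all genes. Nupr1 had −8.98 ± 0.66 (adjusted p = 2.17e-06), Wars −4.04 ± 0.57 (adjusted p = 1.98e-04) and Atf4 −0.85 ± 0.49 (adjusted p = 0.191), the last not called. Apart from Nupr1 and Wars, the smallest p-values among members were those of Shmt2 (2.47 ± 0.33), Atf5 (2.81 ± 0.39), Iars (3.45 ± 0.52) and Mthfd2 (−2.19 ± 0.33). Since the labelled treatment of the libraries labelled KO runs against Nos2, these values cannot be told apart from exchanged treatment labels.

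Upstream of ATF4, genes of the eIF2 kinases moved in opposite directions. Eif2ak2, the kinase PKR that senses double-stranded RNA and is itself interferon-induced, had 54.8, 26.3 and 29.6 normalised CPM in libraries labelled KO LPS, 254, 287 and 379 in those labelled KO medium, 263, 288 and 331 in WT LPS and 73.3, 63.5 and 64.05 in WT medium. Eif2ak3, the kinase PERK of the endoplasmic reticulum, had 15.1, 42.01 and 41.3 normalised CPM in libraries labelled KO LPS, 4.17, 2.62 and 4.69 in those labelled KO medium, 3.21, 12.9 and 5.7995 in WT LPS and 29.95, 13.7 and 29.6 in WT medium. Eif2ak4, the amino acid sensor GCN2, had 14.9, 17.6 and 14.7 normalised CPM in libraries labelled KO LPS, 4.796, 5.45 and 5.63 in those labelled KO medium, 5.12, 12.5 and 5.73 in WT LPS and 20.4, 12.8 and 19.5 in WT medium. Eif2ak2 was high where Eif2ak3 and Eif2ak4 were low. In WT LPS against WT medium, 2 of 12 genes of the kinase and phosphatase list rose and 2 fell by edgeR: Ppp1r15b, a subunit that directs the phosphatase to eIF2, rose by 2.69 ± 0.35 (adjusted p = 4.32e-04) and Eif2ak2 by 2.14 ± 0.31 (adjusted p = 7.81e-04), while Eif2ak4 changed by −1.17 ± 0.35 (adjusted p = 0.03505) and Eif2ak3 by −1.73 ± 0.54 (adjusted p = 0.0439). In libraries labelled KO LPS against KO medium, 2 were higher and 2 lower, with Eif2ak2 at −3.05 ± 0.32 and Ppp1r15b at −2.56 ± 0.35. The counts were 1 higher (0 without labelled KO LPS 2 or 3 or WT LPS 1 or 3, and 2 without WT LPS 2) and 2 lower for labelled KO LPS against WT LPS and 3 higher and 2 lower for labelled KO medium against WT medium. Over all genes 18.3%, 30.4%, 24.1% and 26.3% were called in these 4 comparisons, in the order given. Eif2ak1, the haem-sensing kinase, had no call in these comparisons. Ppp1r15a, the stress-induced subunit GADD34, had 88.2, 83.4 and 63.3 normalised CPM in libraries labelled KO LPS, 113, 162 and 128 in those labelled KO medium, 138, 61.9 and 75.2 in WT LPS and 44.5, 55.6 and 75.6 in WT medium, and was called only in libraries labelled KO medium against WT medium among the 4, at 1.196 ± 0.33 (adjusted p = 0.0208), and not without labelled KO medium 2 (0.09201) and without WT medium 1 (0.0918). The WT calls of Eif2ak3 and Eif2ak4 were not stable to single libraries, with edgeR adjusted p-values in parentheses. Eif2ak3 lost its call without WT LPS 1 (0.118) or 3 (0.161) and without WT medium 1 (0.127) or 3 (0.121), and Eif2ak4 without WT LPS 1 (0.121) or 3 (0.157) and without WT medium 1 (0.1203) or 3 (0.107).

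**Figure D4:**
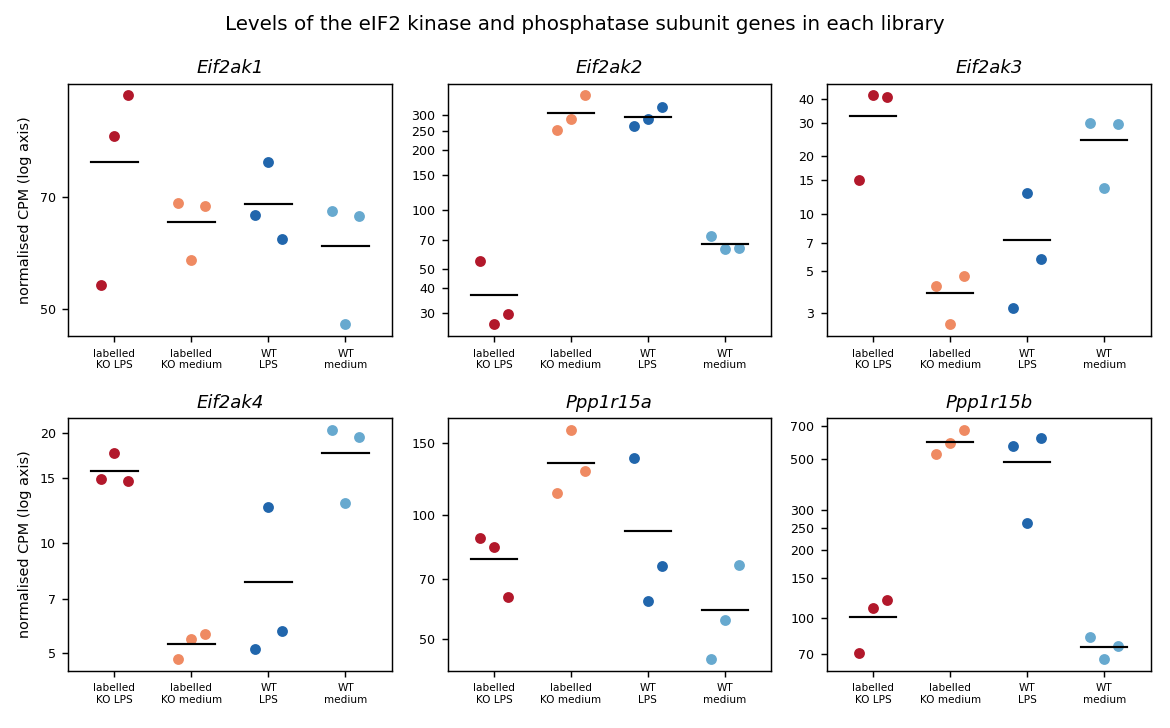
Level of the 4 eIF2 kinase genes and the 2 phosphatase subunit genes in each library (points, normalised CPM on a log axis that differs between panels), with the group mean as a line. Eif2ak2 and Ppp1r15b are high under the KO medium label and in WT LPS, where Eif2ak3 and Eif2ak4 are low, and WT LPS 2 lies towards WT medium for Eif2ak3, Eif2ak4 and Ppp1r15b.

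The lists that follow are set beside the share of all genes called, 18.3% in WT LPS against WT medium (11.9% higher and 6.46% lower). That share was 30.4% (15.1% and 15.3%) for labelled KO LPS against KO medium and 24.1% (10.4% and 13.7%) against WT LPS. For labelled KO medium against WT medium it was 26.3% (14% and 12.3%). Other published ATF4 targets were also mixed. Of 19 tested, 3 rose and 1 fell in WT LPS against WT medium, and by edgeR Jdp2, a bZIP repressor, rose by 1.71 ± 0.34 (adjusted p = 0.00525) and Atf3, a stress-induced bZIP factor, by 1.26 ± 0.31 (adjusted p = 0.0149). In libraries labelled KO LPS against KO medium 7 were higher and 2 lower, the smallest p-values being those of Atf3 (−1.56 ± 0.31) and Slc7a11, the cystine transporter (−2.78 ± 0.61). The count of 7 was 3 without labelled KO medium 1 and 4 without any other library of that comparison except labelled KO LPS 1. Slc7a11 (−2.94 ± 0.62) and Gdf15, a stress cytokine (1.99 ± 0.45), led the 3 higher and 4 lower for labelled KO LPS against WT LPS. For labelled KO medium against WT medium 3 were higher and 2 lower. Leaving out 1 library gave 1 to 5 higher and 0 to 2 lower in WT LPS against WT medium, with 1 and 0 without WT medium 1 and 5 higher without WT LPS 2 or WT medium 2. It gave 1 lower for labelled KO LPS against WT LPS without labelled KO LPS 2, and 2 lower without labelled KO LPS 1 or 3 or WT LPS 3. For labelled KO medium against WT medium it gave 0 lower without labelled KO medium 2, WT medium 1 or WT medium 3, 1 without labelled KO medium 1 and 4 without WT medium 2. The 17 listed mitochondrial synthetases, each with a gene of its own, had 0 higher and 3 lower in WT LPS against WT medium, with Vars2 at −1.42 ± 0.38 and Nars2 at −1.92 ± 0.56. They had 5 higher and 0 lower between libraries labelled KO LPS and KO medium, 4 and 0 between labelled KO LPS and WT LPS, and 1 and 5 between labelled KO medium and WT medium. Without labelled KO medium 1 or 2 the count of 5 higher was 3, and without WT LPS 1 or 3 the count of 4 was 2. The 5 lower for labelled KO medium against WT medium were 1 without WT medium 1, 2 without labelled KO medium 1 or 3 or WT medium 3, 3 without labelled KO medium 2 and 8 without WT medium 2, and the 3 lower in WT were 0 without any 1 of WT LPS 1, WT LPS 3, WT medium 1 and WT medium 3. The 1 higher for labelled KO medium against WT medium was Lars2, at 2.96 ± 0.78 (adjusted p = 0.0164), and not called without labelled KO medium 1 (0.0915) and without WT medium 1 (0.06899) or 3 (0.0688). In WT the calls of Vars2 ended without WT LPS 1 (0.0649) or 3 (0.0943) and without WT medium 1 (0.0833) or 3 (0.0615), those of Nars2 without WT LPS 1 (0.0896) or 3 (0.0901) and without WT medium 1 (0.08299) or 3 (0.0911), and that of Atf3 without WT LPS 1 (0.0742) and without WT medium 1 (0.0654) or 3 (0.0701). Of the 5 genes for phenylalanine synthetase subunits and complex scaffolds, 0 were called by edgeR in any of these 4 comparisons, with 0 to 2 at an unadjusted p under 0.05 depending on the comparison, and DESeq2 called 1 in WT LPS against WT medium (Farsb) and 1 in labelled KO medium against WT medium (Farsa).

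How libraries were scaled mattered for this set, since the TMM factors differed between groups, with 1.205 to 1.24 in libraries labelled KO LPS, 0.702 to 0.791 in those labelled KO medium, 0.765 to 1.02 in WT LPS and 1.103 to 1.46 in WT medium. Scaling by library size alone moved the median log2 fold change of all genes from −0.06 with TMM to −0.64 in WT LPS against WT medium, and from 0.04 to 0.78 between libraries labelled KO LPS and KO medium. Over all genes, WT LPS against WT medium then had 1033 higher and 3200 lower calls, in place of 1636 and 890 with TMM. For the members it had 5 higher and 15 lower, with 11 synthetases lower in place of 2. Each of the 9 members called with TMM in that comparison was called with the same sign under both scalings. Between labelled KO LPS and KO medium 15 of 17 were, without Kars and Mthfd2, between labelled KO LPS and WT LPS 12 of 13, without Mthfd2, and between labelled KO medium and WT medium 12 of 16, without Kars, Mthfd2, Rars and Slc3a2. No called member changed sign.

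**Figure D5:**
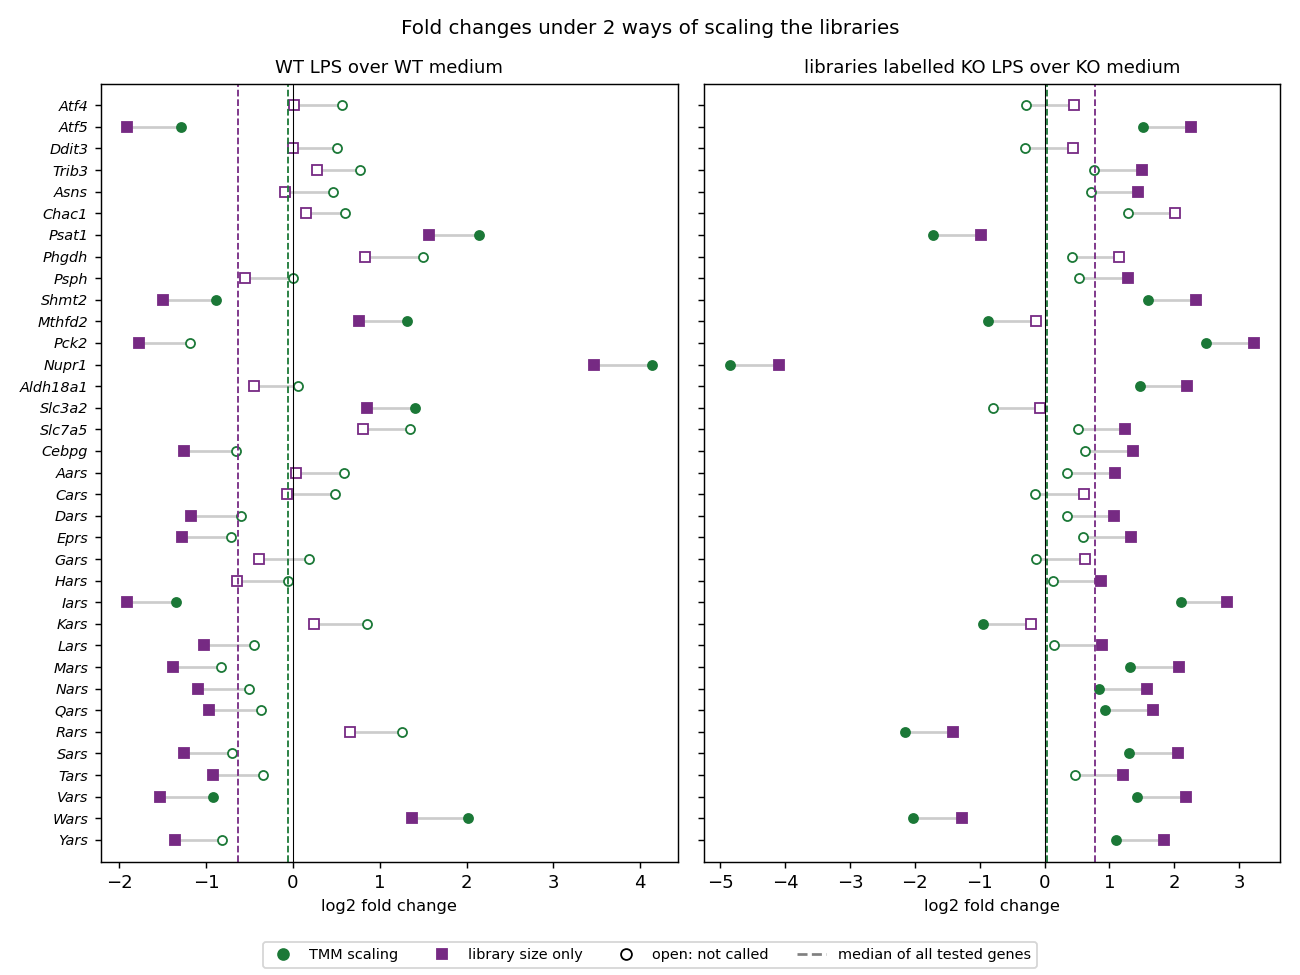
Log2 fold change (x axes) of the 35 tested genes (rows) with TMM scaling (green circles) and with library size alone (purple squares), in WT LPS over WT medium and in libraries labelled KO LPS over KO medium. Open symbols did not pass an edgeR adjusted p under 0.05, and dashed lines give the median of all tested genes under each scaling, −0.06 and −0.64 on the left. The 2 symbols of a gene lie about as far apart as the 2 dashed lines.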

How the data were processed

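RNA was sequenced in 12 libraries, and the submitters' processing notes name the build mm10. Neither the aligner nor the counting tool, its strand setting and annotation is given in the sources used here, and the labels' protocols name both a TruSeq and a KAPA Stranded kit. The deposited count table holds unnormalized whole-number counts, and no row lacked a gene. The deposited FPKM values were these counts scaled by library total and length by the authors, so the tables are not independent. Positions came from GENCODE M21 (GRCm38).

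The counts went into edgeR 4.0.16 under R 4.3.3 (quasi-likelihood test, TMM, filterByExpr, 1 mean per group over all 12 libraries), adjusted by Benjamini-Hochberg over 13773 genes and called under 0.05. Errors of log2 fold changes are standard errors derived from F, and 95% intervals of folds use them with the test's degrees of freedom. DESeq2 1.42.0, another scaling, no filter, a replicate block, own-group fits and leaving out each library were alternatives. The fit was checked on simulated counts. Floors cover counting error only.

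Members and gene lists were chosen with earlier results of these data known. Named genes were Nupr1, Wars and Atf4, up to 6 called members with the smallest p per comparison, levels of members called in at least 2 of the 4 comparisons of groups differing in 1 label, and up to 2 called genes per pathway list and comparison. Cebpg, Aldh18a1, Lars2, the other eIF2 kinases, Ppp1r15a and further fold changes were named after their values were seen.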

Additional observations from a re-analysis of the deposited data

Results flagged for a closer look

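For 20 members the labelled LPS effect differed between the libraries labelled KO and the WT libraries by the edgeR interaction test (adjusted p under 0.05), with 41.1% of all tested genes called in it. The log2 interaction, labelled KO LPS over KO medium minus WT LPS over WT medium, was −8.98 for Nupr1, −4.04 for Wars, −3.87 for Psat1, −3.41 for Rars, −2.20 for Slc3a2, −2.19 for Mthfd2 and −1.79 for Kars. It was positive for the other 13: 3.66 for Pck2, 3.45 for Iars, 2.81 for Atf5, 2.47 for Shmt2, 2.34 for Vars, 2.15 for Mars, 1.995 for Sars and 1.92 for Yars. Aldh18a1 had 1.41, Nars 1.35, Qars 1.30, Eprs 1.30 and Cebpg 1.27. Since Nos2 was low in the libraries labelled KO LPS and high in those labelled KO medium, these differences and exchanged treatment labels cannot be told apart. Aldh18a1 lost its call when any of 9 libraries was left out in turn, and Eprs when labelled KO medium 1 (0.0542), WT LPS 1 (0.0529) or WT LPS 3 (0.0584) was left out, with edgeR adjusted p-values in parentheses.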

How the results depend on the processing

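With any library of the comparison left out, 5 of 9 member calls were kept in WT LPS against WT medium, 10 of 17 in labelled KO LPS against KO medium, 6 of 13 in labelled KO LPS against WT LPS, 8 of 16 in labelled KO medium against WT medium and 18 of 20 in the interaction. The count of members called in WT LPS against WT medium, 9 in the report, was 20 (5 higher, 15 lower) with library size only, 16 (6 higher, 10 lower) by DESeq2 and 17 (9 higher, 8 lower) with presence of Xist RNA as a covariate, an alternative chosen after seeing the data. In place of 1636 higher and 890 lower over all 13773 genes, library size only gave 1033 and 3200 and the Xist covariate 2073 and 1463. DESeq2 gave 2011 and 1424 of 27062 genes. Between libraries labelled KO LPS and KO medium the count of 17 was 26 (22 higher, 4 lower) with library size only. Over all genes that scaling gave 5317 higher and 1177 lower there, in place of 2082 and 2104. Leaving out 1 library at a time gave counts of 5 to 14 in WT LPS against WT medium, 12 to 18 for labelled KO LPS against KO medium, 7 to 16 for labelled KO LPS against WT LPS, 8 to 17 for labelled KO medium against WT medium, 0 to 0 for both comparisons across labels and 18 to 21 for the interaction. Over all genes the ranges of the first 4 were 1384 to 3042, 2543 to 5095, 1810 to 4093 and 2196 to 4735. They were 0 to 2 for labelled KO medium against WT LPS and 0 to 245 for labelled KO LPS against WT medium. For the interaction the range was 4709 to 6296. With the replicate number as a block, the counts were 8, 16, 13 and 16 in these 4 comparisons, 0 and 0 across labels and 19 for the interaction. Over all genes the block gave 1444 higher and 695 lower, 1754 and 1866, 1210 and 1688, and 1748 and 1416 in the 4 comparisons. For the interaction it gave 2633 and 2652. Same-numbered libraries had correlations of −0.63 to 0.57, so the replicate numbers do not pair the libraries. The label codes of WT LPS 1 and WT medium 2 share the number 45 and those of WT LPS 2 and WT medium 3 the number 50, with correlations of 0.593 and 0.456, but the labels do not say what the codes mean and the libraries of each pair are also alike in the presence of Xist RNA. WT LPS 2 and WT medium 1, whose code numbers differ and which both held Xist RNA, had a correlation of 0.479. With 1 term for each shared number, an alternative chosen after seeing the data, the counts were 11, 18, 11 and 12, again 0 and 0, and 20. Over all genes these terms gave 1732 higher and 1095 lower, 2349 and 2370, 993 and 1682, and 1506 and 1168 in the 4 comparisons. For the interaction they gave 3047 and 3019. Of the fold changes of Nlrc3 and of called members described by the naming rule, 36 kept direction and call under DESeq2, other size factors, no filter, the block, the shared code numbers and the Xist covariate. With library size only 35 did and 1 missed the threshold, and in own-group fits 27 did and 3 missed it. Over the fits that left out 1 library, 239 values kept direction and call and 13 missed the threshold. Most of these members were taken for their small p, so the tallies do not stand for all member calls. No direction reversed in any of these. The interaction has no own-group fit. The cause of each change was not tested.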
